A study of Mus musculus with 14 samples.

Results

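The BCL2 family sets the threshold at which a cell dies through its mitochondria. The survival proteins BCL2, BCL-XL (gene Bcl2l1), MCL1 and A1 (genes Bcl2a1b and Bcl2a1d) hold the pore-forming effectors BAX and BAK (gene Bak1) in check. The BH3-only proteins BIM (gene Bcl2l11), PUMA (gene Bbc3) and NOXA (gene Pmaip1) bind the survival proteins and so release the effectors. In the bone marrow, MCL1 is known to be required for the survival of hematopoietic stem cells, BCL-XL for that of erythroid cells and platelets, and A1 is known as a survival gene of activated myeloid cells. These 10 genes, the whole set followed here out of 55487 genes in the tables, were set by gene name, with no threshold on their values.

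On GRCm38 the survival genes lie at chr1:106538178-106714274 (Bcl2), chr2:152780668-152831728 (Bcl2l1), chr3:95658788-95663176 (Mcl1), chr9:89199209-89207827 (Bcl2a1b) and chr9:88723285-88731914 (Bcl2a1d). The effector genes lie at chr7:45461697-45466898 (Bax) and chr17:27019810-27029009 (Bak1). The BH3-only genes lie at chr2:128126038-128162547 (Bcl2l11), chr7:16308393-16318205 (Bbc3) and chr18:66458533-66465565 (Pmaip1). Counts were taken over the exons of each gene.

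RNA came from LSK cells (Lin-Sca-1+c-kit+, the stem and early progenitor fraction) and LK cells (Lin-c-kit+, myeloid progenitors, labelled MP), sorted from lethally irradiated C57BL/6 mice. All of these mice, those given PBS included, carried bone marrow of pI-pC-induced Mx1Cre; Jak2VF/+ donors, in which an interferon-inducible Cre switches on 1 mutant Jak2V617F allele. The mice received PBS or IL-1β 3 times a week for 16 weeks, at a dose that the methods give as 0.5 μg and the labels as 0.5 g, and the study states an age of 6 to 8 weeks for its mice in general, without saying at which step. There were 3 PBS and 2 IL-1β libraries for each of LSK and LK. Mesenchymal stromal cells (MSC) were grown for 21 days from the marrow of wild-type mice and were then cultured for 72 h, either in PBS or in 5 ng/ml IL-1β, with 2 libraries for each treatment. Nothing in the labels says which libraries came from separate mice or cultures, so the p-values measure the spread between these libraries, which may be technical in part.

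Library totals ran from 4393233 to 30871055 counted read pairs, and the IL-1β libraries of both sorted populations had fewer pairs than any of their PBS libraries, so that treatment and depth cannot be told apart in sorted cells. LSK PBS replicate 2 stood apart from the other LSK PBS libraries at several members, and results are given with and without it where it decides them. The Sca-1 gene Ly6a was at 15.2 to 42.1 counts per 1e6 counted pairs (CPM) in LSK and at 0.257 to 1.99 CPM in LK, and Kit was at 292 to 605 CPM in all sorted libraries, so both genes used for the gates were found where the labels place them. Marker sums of several cell types moved with treatment in the sorted libraries. The summed level of 13 neutrophil granule markers was 2205 to 3190 CPM in LSK with PBS and 10076 to 11785 CPM with IL-1β. In LK it was 4432 to 9599 CPM with PBS and 18316 to 21450 CPM with IL-1β. Among 12 tested neutrophil markers, IL-1β libraries had 4 higher calls in LSK and 8 such calls in LK. The 6 stem cell markers summed to 223 to 290 CPM in LSK with PBS and 63.2 to 83.2 CPM with IL-1β, and the 8 lymphoid markers to 349 to 630 CPM against 37.4 to 69.1 CPM. Called lower were 1 of 6 tested stem cell markers and 2 of 3 tested lymphoid markers. The stem cell marker Fgd5 was at 0 in LSK IL-1β replicate 2 and in both LK IL-1β libraries. With PBS, Fgd5 had at most 6 counts in LK. Of the 5 stem cell markers tested in LK, 2 had positive and 3 negative log2 fold changes. In LK, the 10 erythroid markers summed to 4800 to 6394 CPM with PBS and 3055 to 3427 CPM with IL-1β, and 5 of 10 were called lower. In the MSC cultures, the 14 macrophage markers summed to 20077 to 43056 CPM and the 13 mesenchymal markers to 1523 to 4372 CPM. All 14 macrophage markers were counted in every MSC library. Of the 13 mesenchymal markers, only Lepr, which marks stromal cells of the marrow, was at 0 in both PBS cultures. None of the 13 was at 0 with IL-1β. The cultures are therefore called by their label, MSC, with this mixture in mind. In bulk RNA, fewer cells of a type and less RNA per cell cannot be told apart.

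The A1 genes need their sequences to be read correctly, since the read pairs of near-identical copies compete. Bcl2a1a, Bcl2a1b and Bcl2a1d lie on chromosome 9, and their coding sequences of 519 bases are identical at 507 positions. Bcl2a1b and Bcl2a1d differ at 6 of these bases, and Bcl2a1a and Bcl2a1b at 11. The first 90 coding bases hold 6 of the 12 positions at which the genes differ, and are shown here with those positions in capitals (GENCODE M21, GRCm38). They were read at chr9:88957051-88957140 on the plus strand for Bcl2a1a, at chr9:89199360-89199449 on the plus strand for Bcl2a1b and at chr9:88731630-88731719 on the minus strand for Bcl2a1d.
Bcl2a1a: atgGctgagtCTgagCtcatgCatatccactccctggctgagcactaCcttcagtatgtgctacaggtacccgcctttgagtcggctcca
Bcl2a1b: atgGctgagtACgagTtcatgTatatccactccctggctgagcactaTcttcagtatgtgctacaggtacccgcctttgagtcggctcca
Bcl2a1d: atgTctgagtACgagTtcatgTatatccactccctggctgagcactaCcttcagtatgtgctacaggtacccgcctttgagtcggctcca
After the last capital these 3 stretches are the same. Of all windows of 75 bases in the transcripts, 55.2% of those of Bcl2a1a, 43.5% of those of Bcl2a1b and 67.6% of those of Bcl2a1d also occur in another Bcl2a1 gene. Read pairs lying wholly in such windows map to more than 1 place and were not counted, so the counts of these genes are too low by an unknown and unequal amount. Bcl2a1b also shares 401 of its 817 exon bases, on the same strand, with Gm29094, an annotated readthrough transcript, and pairs within those bases belong to neither gene in the counts. Bax shares 192 of its 1576 exon bases with Gm45808 in the same way. The overlaps of Bcl2 and Bak1 with other genes lie on the opposite strand, which the reverse-stranded counting keeps apart.

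Levels across the populations are given as level per kb, which is TMM-scaled counts per kb of exon per 1e6 counted pairs, so that genes can be set beside each other. Mcl1, which encodes a short-lived survival protein that is also controlled by translation and degradation, led the survival genes in counted level in every library. Its level per kb was 58.4 ± 2.07 (SD, n = 3) in LSK with PBS, 58.0 ± 3.16 (SD, n = 3) in LK with PBS and 251 ± 2.75 (SD, n = 2) in MSC with PBS. In transcripts per 1e6 (TPM), Mcl1 was at 183 to 266 in LSK, 119 to 215 in LK and 600 to 647 in MSC with PBS. Bcl2 ran the other way, at 15.2 ± 1.78 in LSK, 4.56 ± 0.948 in LK and 2.77 ± 0.910 in MSC with PBS on the level per kb scale, and the higher MSC library (3.42) came close to the lowest LK library (3.49). On the TPM scale those 2 libraries crossed, at 8.09 for MSC PBS replicate 3 and 7.11 for LK PBS replicate 1. Bcl2l1 was at 8.12 ± 1.91 in LSK, 3.03 ± 0.189 in LK and 50.1 ± 13.97 in MSC on the same scale. Bcl2a1b was at 106 ± 1.94 and Bcl2a1d at 28.1 ± 2.97 per kb in MSC with PBS, and both were nearly uncounted in sorted cells. These A1 levels are too low by the unknown amount described above, so the rank of Mcl1 over Bcl2a1b in MSC is not secure. Bcl2a1b had at most 6 read pairs in any sorted library and was at 0 in both LSK IL-1β libraries, where a count of 0 allows up to 0.347 and 0.683 pairs per 1e6 (3 counts, for counting error only). Bcl2a1d had at most 5.

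Of the effectors, Bak1 was more even across the populations than Bax. Bak1 was at 37.1 ± 3.91 per kb in LSK, 56.1 ± 6.24 in LK and 37.2 ± 2.42 in MSC with PBS. LSK and MSC thus had nearly the same Bak1 level on this scale, but not on the TPM scale. There the LSK libraries with PBS were at 108.3 to 167.7, each above both MSC libraries with PBS. Bax was at 34.9 ± 24.7, 43.1 ± 7.13 and 125 ± 22.9 per kb in LSK, LK and MSC with PBS. The wide SD in LSK comes from replicate 2, at 63.4 per kb against 20.6 for the lowest library. Of the BH3-only genes, Bcl2l11 was at 2.67 ± 0.664, 3.17 ± 0.812 and 16.1 ± 0.248 per kb in LSK, LK and MSC with PBS. Bbc3, a target gene of p53, was at 5.90 ± 2.02, 4.12 ± 1.13 and 15.1 ± 0.698 per kb. Pmaip1 was at 2.04 ± 1.42, 0.728 ± 0.205 and 10.4 ± 0.419 per kb. In all, 8 of the 10 members had their highest PBS mean in MSC, and the same number did so on the TPM scale. The share of all genes with their highest PBS mean in MSC was not computed. This count therefore does not say whether the members differ from other genes. No test was made between MSC and sorted cells, since culture, genotype and RNA kit differed together.

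**Figure D1:**
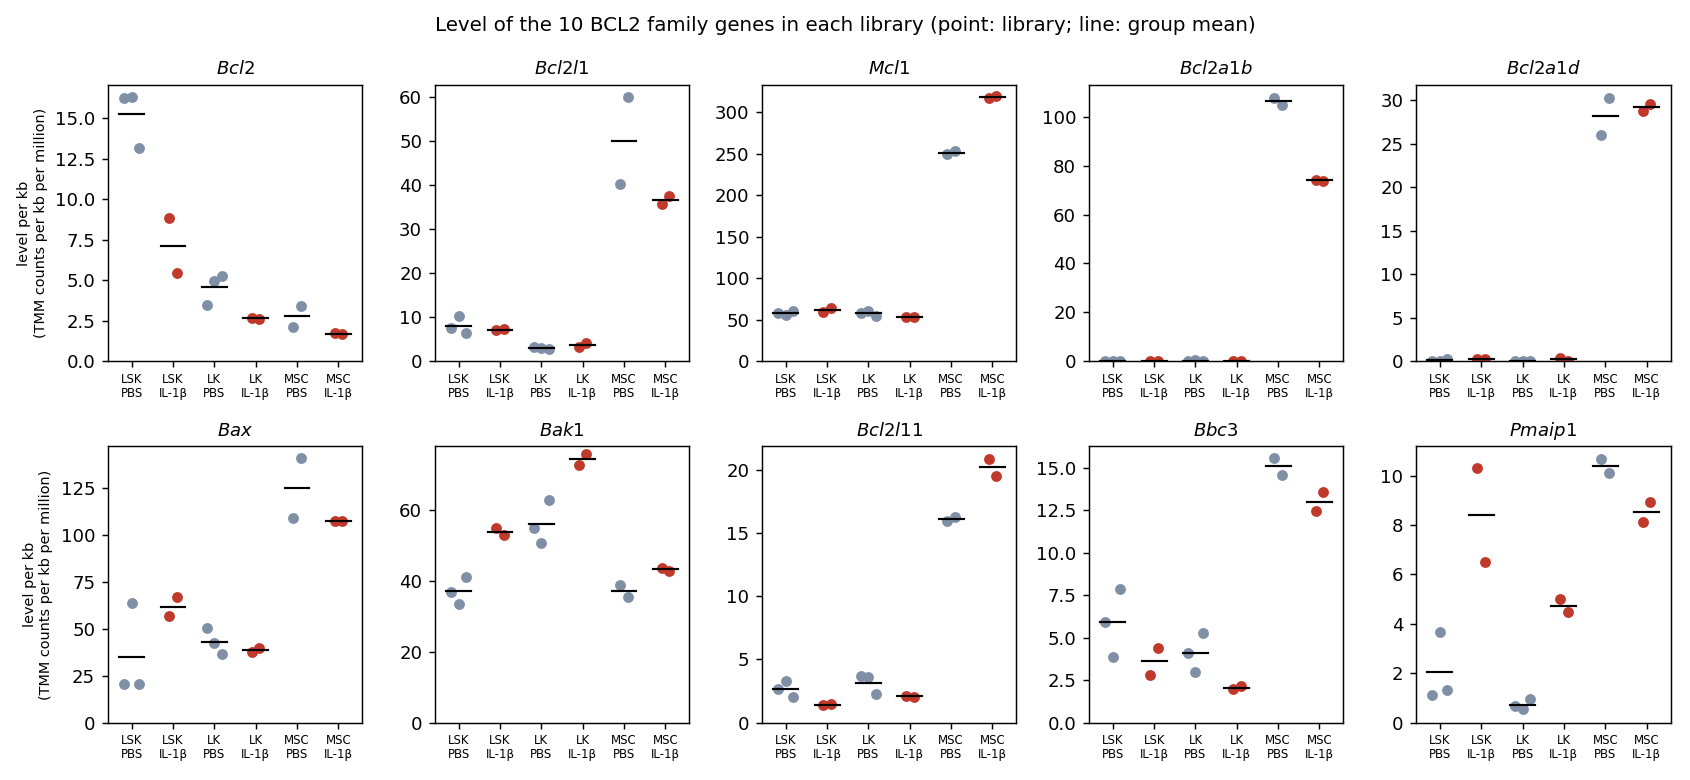
Level per kb (TMM-scaled counts per kb of exon per 1e6 pairs, linear axes from 0) of the 10 members in each of the 14 libraries, with a line at each group mean. Bcl2 is highest in LSK with PBS, the A1 genes Bcl2a1b and Bcl2a1d are counted almost only in MSC, and LSK PBS replicate 2 is the highest of its group for Bax (63.4) and Pmaip1 (3.67).

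Within the survival genes, Mcl1 made up most of the summed level per kb in every population, as counted. Its share was 71.3% ± 3.58 in LSK with PBS (n = 3) and 80.8% ± 3.29 with IL-1β (n = 2), and the 2 groups did not overlap (67.9 to 75.01% against 78.5 to 83.1%). Bcl2 took the complementary course in LSK, with a share of 18.6% ± 1.90 under PBS and 9.40% ± 3.31 under IL-1β. In LK the Mcl1 share was 88.2% ± 1.25 with PBS and 89.0% ± 0.582 with IL-1β, and these ranges overlapped. In MSC, the Mcl1 share was 57.4% ± 1.81 with PBS and 69.2% ± 0.0957 with IL-1β, and the Bcl2a1b share was 24.3% ± 1.47 and 16.1% ± 0.198. These MSC shares rest on A1 counts that are too low by an unknown amount. Bcl2 was under 1% of the survival sum in each MSC library, with the highest share at 0.756%. Among the pro-apoptotic genes, Bax and Bak1 led in every library. Pmaip1 held 2.30% ± 0.965 of that sum in LSK with PBS and 6.55% ± 2.32 with IL-1β, and 0.678% ± 0.185 and 3.90% ± 0.419 in LK. The log2 ratio of the survival sum to the pro-apoptotic sum was 0.02 ± 0.35 in LSK with PBS and −0.76 ± 0.03 with IL-1β. The corresponding values were −0.71 ± 0.15 and −1.01 ± 0.03 in LK, and 1.11 ± 0.08 and 1.26 ± 0.01 in MSC. These ratios are a description of mRNA sums with no test, and those of MSC rest on the same A1 counts. The sums and shares hold only the 10 members. Other genes of the family lay outside them, among them Bid (15.9), Bad (8.18) and Bcl2l2 (3.55 per kb in LSK with PBS).

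**Figure D2:**
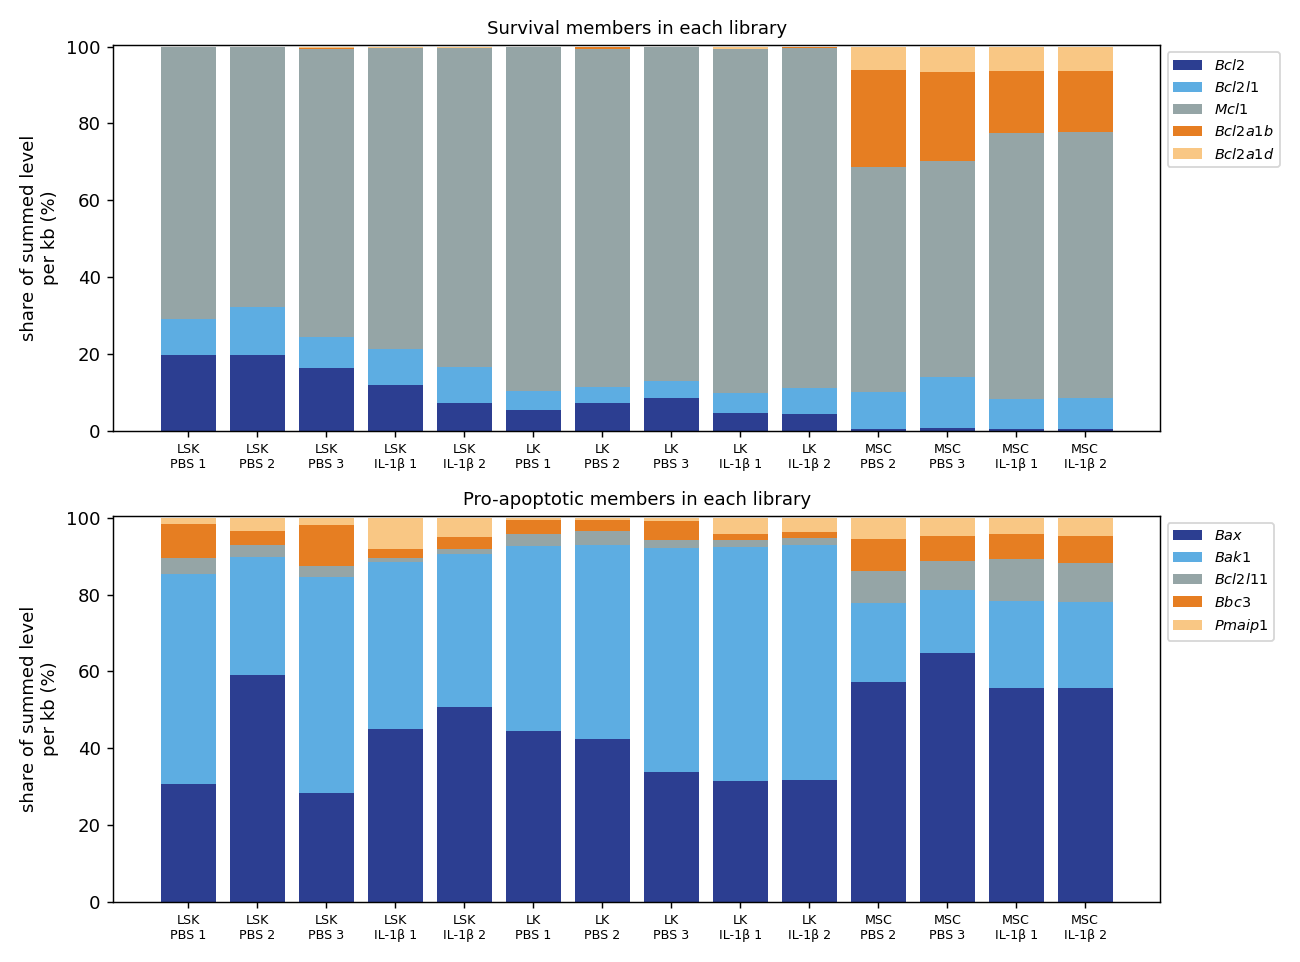
Share (%) of the summed level per kb held by each survival member (upper bars) and each pro-apoptotic member (lower bars) in every library. Mcl1 fills most of each upper bar, Bcl2 is widest in LSK with PBS (16.4 to 19.7%), and Bax fills 58.9% of the lower bar in LSK PBS replicate 2.

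The first comparison asked how 16 weeks of IL-1β changed these genes in Jak2VF/+ LSK cells. None of the 8 members tested was called by edgeR's quasi-likelihood test (adjusted p under 0.05 and log2 fold change above 0.5 in size), where 0.632% of all 13132 tested genes were called, 0.32% higher and 0.312% lower. Bcl2a1b and Bcl2a1d had too few counts. Before adjustment 4 of 8 had p under 0.05, against 18.5% of all genes. Libraries of the 2 treatments did not overlap at 4 of 8 members, 2 higher (Bak1, Pmaip1) and 2 lower (Bcl2, Bcl2l11), where 39.6% of all genes did not overlap, 18.2% higher and 21.4% lower. Limma-voom called none of the members, and DESeq2 called 2 members, Bcl2 lower and Pmaip1 higher.

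Bcl2 was at 164, 166 and 137 CPM in the PBS libraries of LSK and at 89.9 and 55.5 CPM in the IL-1β libraries. Each IL-1β library lay below each PBS library. The log2 fold change was −1.09 (SE 0.28, edgeR adjusted p = 0.107), and the adjusted p was 0.0152 with DESeq2 and 0.0199 in a joint fit with the LK libraries. Under 10 of the 14 alternatives Bcl2 was likewise not called, and its log2 fold change ran from −1.49 to −0.77 with 1 library left out. Bcl2l1 was at 38.8, 51.9 and 33.8 CPM with PBS and at 36.3 and 37.4 CPM with IL-1β (log2 fold change −0.17, SE 0.29, edgeR adjusted p = 0.781). The IL-1β values lay inside the range of the PBS values. Mcl1 was at 222, 213 and 234 CPM with PBS and at 224 and 244 CPM with IL-1β (log2 fold change 0.07, SE 0.22, edgeR adjusted p = 0.894). The Mcl1 libraries of the treatments overlapped.

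Among the effectors, Bax was at 36.0, 111 and 37.2 CPM in the PBS libraries of LSK and at 99.1 and 118 CPM with IL-1β. PBS replicate 2 sat among the IL-1β libraries, and the log2 fold change was 0.82 (SE 0.46, edgeR adjusted p = 0.36). Without that library it was 1.59 (edgeR adjusted p = 0.0312), and Bax was then called higher. Bak1 was at 98.2, 88.9 and 113 CPM with PBS and at 147 and 142 CPM with IL-1β, with no overlap and a log2 fold change of 0.53 (SE 0.23, edgeR adjusted p = 0.262).

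Of the BH3-only genes, Pmaip1, a p53 target that binds MCL1 and A1, was at 3.44, 11.1 and 4.09 CPM in the PBS libraries of LSK and at 31.3 and 19.8 CPM with IL-1β. The groups did not overlap, and PBS replicate 2 was again the PBS library nearest to the IL-1β libraries. The log2 fold change was 2.05 (SE 0.54, edgeR adjusted p = 0.11). Without replicate 2 it was 2.79 (edgeR adjusted p = 0.0293), and DESeq2 gave an adjusted p of 0.00934 on all 5 libraries. Under 9 of the 14 alternatives Pmaip1 was not called, and its lowest log2 fold change with 1 library left out was 1.67. Bcl2l11 was at 23.9, 29.6 and 18.3 CPM with PBS and at 12.2 and 13.4 CPM with IL-1β, again without overlap (log2 fold change −0.91, SE 0.36, edgeR adjusted p = 0.229). Bbc3 was at 13.97, 9.09 and 19.1 CPM with PBS and at 6.69 and 10.4 CPM with IL-1β, and these groups overlapped (log2 fold change −0.73, edgeR adjusted p = 0.425). The marker sums of LSK given above moved with the same libraries, and their part in these differences was not tested.

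In LK cells, Pmaip1 was the member called higher with IL-1β. It was at 1.83, 1.59 and 2.72 CPM in the PBS libraries and at 14.8 and 13.2 CPM in the IL-1β libraries. Both IL-1β libraries were far above the highest PBS library. The log2 fold change was 2.78 (SE 0.32, edgeR adjusted p = 0.00305), and it lost its call without IL-1β replicate 1 (2.67, adjusted p = 0.07). It was the only member called of 8 tested, where 9.34% of all 12835 tested genes were called, 6.77% higher and 2.57% lower. Libraries did not overlap at 6 of 8 members, 3 in each direction, where 45.7% of all genes did not overlap, 23.5% higher and 22.2% lower.

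Bcl2 was at 32.6, 46.2 and 50.1 CPM in the PBS libraries of LK and at 26.6 and 26.0 CPM with IL-1β. The IL-1β libraries lay below all PBS libraries, and the log2 fold change was −0.71 (SE 0.20, edgeR adjusted p = 0.0595). Bcl2 was called lower by DESeq2 (adjusted p = 0.0224), and by edgeR without PBS replicate 1 (0.0263) or PBS replicate 3 (0.0284). Under 8 of the 14 alternatives Bcl2 was not called, and its log2 fold change ran from −0.86 to −0.58 with 1 library left out. Bak1 was at 135, 125 and 157 CPM with PBS and at 190 and 197 CPM with IL-1β. Its groups did not overlap, and its adjusted p passed the threshold while its size did not (log2 fold change 0.48, SE 0.11, edgeR adjusted p = 0.0341). Without PBS replicate 3 the log2 fold change of Bak1 was 0.58 and it was called (adjusted p = 0.000823).

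Bcl2l11 was at 30.04, 29.7 and 18.6 CPM in the PBS libraries of LK and at 18.4 and 17.8 CPM with IL-1β. PBS replicate 3 lay next to the IL-1β libraries, and the log2 fold change of −0.53 was not called (edgeR adjusted p = 0.209), whereas without that library it was −0.71 (adjusted p = 0.00531). Bbc3 was at 8.90, 6.53 and 11.6 CPM with PBS and at 4.50 and 4.97 CPM with IL-1β, lower in each IL-1β library (log2 fold change −0.92, SE 0.33, edgeR adjusted p = 0.119). Bcl2l1 was at 13.7 to 15.2 CPM with PBS and at 16.3 and 20.4 CPM with IL-1β (log2 fold change 0.36, adjusted p = 0.282). Mcl1 was at 194 to 214 CPM in all 5 LK libraries (log2 fold change −0.03, SE 0.09). Bax was at 59.4 to 81.3 CPM with PBS and at 64.1 and 67.1 CPM with IL-1β (log2 fold change −0.09, adjusted p = 0.752). The neutrophil and erythroid marker sums of LK moved with these libraries, as did the lymphoid markers, which summed to 31.9 to 43.4 CPM with PBS and 4.49 to 7.95 CPM with IL-1β (2 of 2 tested called lower). Their part was not tested.

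Whether the response to IL-1β differed between LSK and LK was tested by the interaction in a fit over the 10 sorted libraries. None of the 8 members was called, where 0.0289% of 13839 genes were, and none had an unadjusted p under 0.05, against 14.2% of all genes. DESeq2 and limma-voom called none of the members either. The difference of the log2 fold changes (LSK minus LK) was −0.75 (SE 0.68, edgeR adjusted p = 0.647) for Pmaip1, −0.42 (SE 0.34) for Bcl2 and 0.89 (SE 0.56, adjusted p = 0.488) for Bax. Without LSK PBS replicate 2 that of Bax was 1.61 (adjusted p = 0.0339) and that of Pmaip1 −0.058 (0.958), and the latter was −0.47 without LSK IL-1β replicate 2. That of Bcl2 ran from −0.77 without LSK IL-1β replicate 1 to −0.13 without LSK IL-1β replicate 2, and was −0.27 without LSK PBS replicate 1 and −0.26 without LK PBS replicate 1. The SEs of the members ran from 0.21 to 0.68, and estimates above their SE, such as that of Bax, were still not called.

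In MSC cultures, IL-1β was given for 72 h. Bcl2a1b, an NF-κB target that encodes a form of A1, was at 74.4 and 70.7 CPM with PBS and at 48.1 and 50.3 CPM with IL-1β. The groups stood well apart, with a log2 fold change of −0.56 (SE 0.10, edgeR adjusted p = 0.0255), so Bcl2a1b fell. It was the only member called of 10 tested, where 11.4% of 13239 tested genes were called, 7.14% higher and 4.31% lower. The call was lost without IL-1β replicate 1 (adjusted p = 0.377) or IL-1β replicate 2 (0.28). Bcl2a1d was at 19.0 and 21.5 CPM with PBS and at 19.7 and 21.4 CPM with IL-1β. Its log2 fold change of 0.0081 (SE 0.14, edgeR adjusted p = 0.979) changed sign with limma-voom and with other scaling factors.

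The third A1 gene, Bcl2a1a, rose. It was at 2.50 and 4.22 CPM with PBS and at 10.4 and 13.1 CPM with IL-1β (log2 fold change 1.73, SE 0.30, edgeR adjusted p = 0.0226), and was likewise not called without either IL-1β library (adjusted p = 0.23 and 0.262). The sum of the 3 genes was 95.9 and 96.5 CPM with PBS and 78.2 and 84.7 CPM with IL-1β, lower in both IL-1β libraries. These 3 genes differ by few bases, as printed above, and the size of each change depends on the pairs that could be assigned. How much of the opposite course of Bcl2a1a and Bcl2a1b lies in that assignment was not tested.

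**Figure D3:**
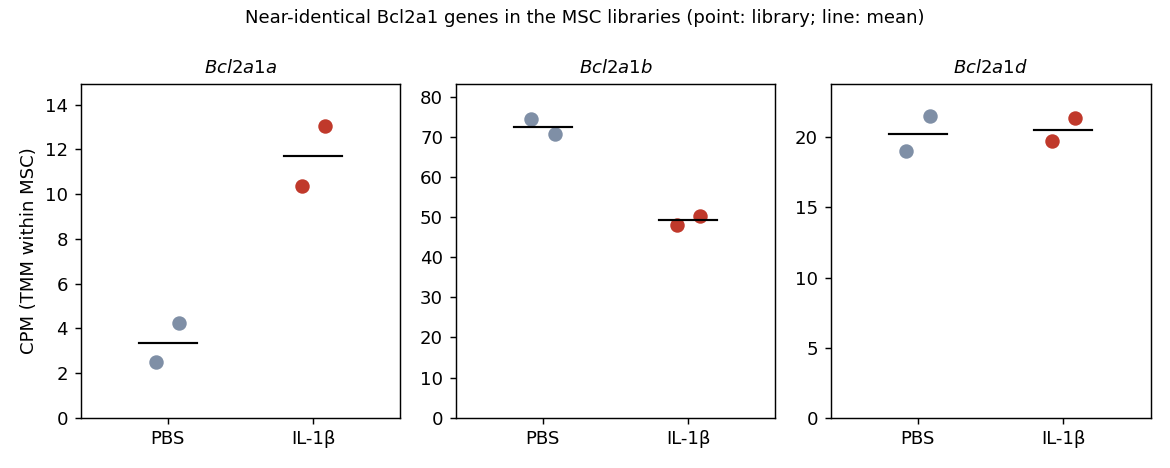
CPM (TMM within MSC, axes from 0) of the near-identical genes Bcl2a1a, Bcl2a1b and Bcl2a1d in the 4 MSC libraries, with a line at each mean of 2. Bcl2a1a is higher and Bcl2a1b lower in both IL-1β libraries, while Bcl2a1d overlaps between treatments.

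For the other survival genes of MSC no call was made. Bcl2 was at 16.5 and 25.8 CPM with PBS and at 12.5 and 12.7 CPM with IL-1β (log2 fold change −0.77, SE 0.23, edgeR adjusted p = 0.088). Bcl2l1 was at 156 and 227 CPM with PBS and at 130 and 144 CPM with IL-1β (log2 fold change −0.49, edgeR adjusted p = 0.155). In both genes the IL-1β libraries lay below the PBS libraries, and PBS replicate 3 was the higher PBS library. Without PBS replicate 3 the log2 fold changes shrank to −0.39 for Bcl2 (adjusted p = 0.147) and −0.19 for Bcl2l1 (0.179). Without PBS replicate 2 both were called lower, Bcl2 at −1.03 (adjusted p = 9.52e-06) and Bcl2l1 at −0.72 (1.92e-06), in fits where the lone PBS library is assumed to vary like the IL-1β libraries. Mcl1 was at 721 and 715 CPM with PBS and at 860 and 913 CPM with IL-1β, higher in both IL-1β libraries by a log2 fold change of 0.30 (SE 0.11, edgeR adjusted p = 0.125).

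Of the pro-apoptotic genes of MSC, Bcl2l11 was at 108 CPM in both PBS libraries and at 133 and 131 CPM with IL-1β (log2 fold change 0.29, edgeR adjusted p = 0.108). Pmaip1 was at 24.7 and 22.7 CPM with PBS and at 17.6 and 20.4 CPM with IL-1β (log2 fold change −0.32, edgeR adjusted p = 0.208). Its estimate was thus negative here and positive in both sorted populations, a difference that was not tested. Bbc3 was at 28.0 and 25.6 CPM with PBS and at 21.0 and 24.1 CPM with IL-1β, and Bax at 145 and 183 CPM against 134 and 141 CPM. Bak1 was at 79.2 and 70.5 CPM with PBS and at 83.5 and 86.0 CPM with IL-1β, and none of these was called. Libraries of the treatments did not overlap at 9 of 10 members, 3 higher and 6 lower, where 61.2% of all genes did not overlap, 31.3% higher and 29.8% lower. The macrophage markers summed to 20077 and 24085 CPM with PBS and to 41827 and 43056 CPM with IL-1β, and 8 of the 14 were called higher. Of 11 tested mesenchymal markers 1 was called higher and 1 lower. The macrophage marker Lyz2 alone had means of 5968 CPM with PBS and 20338 CPM with IL-1β. Of the 14 macrophage markers, 12 had positive and 2 negative log2 fold changes. The 2 were Cd68 (means of 1305 and 939 CPM) and Tyrobp (778 and 619 CPM). None of the 14 was at 0 in any MSC library, and the part of this shift in the MSC results was not tested.

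**Figure D4:**
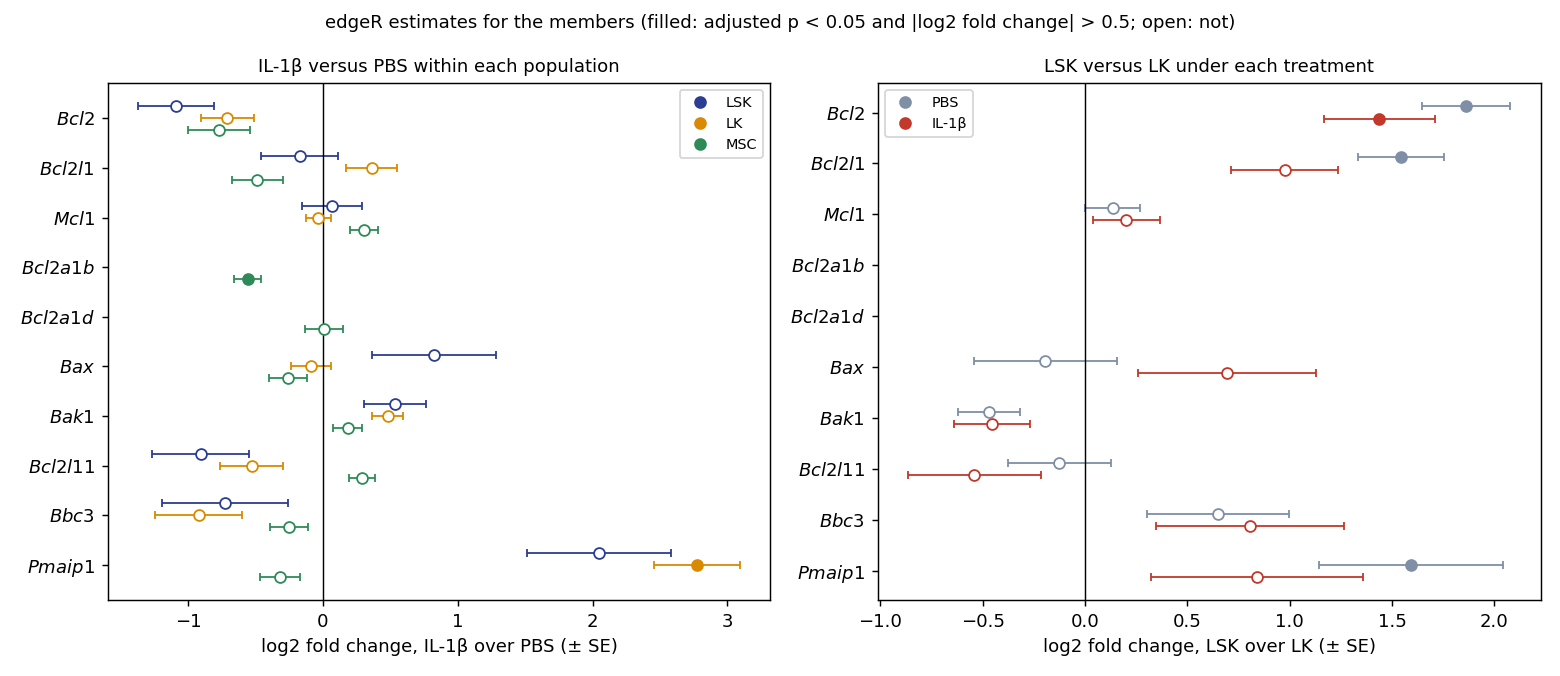
Log2 fold changes with their SE from edgeR for the members, IL-1β over PBS within LSK, LK and MSC (left) and LSK over LK under each treatment (right), with filled points for called members. Pmaip1 in LK (2.78) and Bcl2a1b in MSC (−0.56) are filled on the left, and Bcl2, Bcl2l1 and Pmaip1 under PBS and Bcl2 under IL-1β on the right.

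Bcl2 and Bcl2l1 were higher in LSK than in LK cells with PBS. In that comparison, 3 of 8 members were called higher in LSK than in LK and none lower, where 31.8% of 13839 genes were called, 19.4% higher and 12.4% lower. Libraries did not overlap at 3 members higher in LSK and 1 lower, where 48% of all genes did not overlap, 26.2% higher and 21.8% lower. Bcl2 was at 13.2 to 16.3 per kb in LSK and at 3.49 to 5.27 per kb in LK. The log2 fold change was 1.86 (SE 0.22, edgeR adjusted p = 0.00011), and Bcl2 was called under all 14 alternatives. Bcl2l1 was at 6.49 to 10.2 per kb in LSK and at 2.89 to 3.24 per kb in LK, a log2 fold change of 1.54 (SE 0.21, edgeR adjusted p = 0.000264) that likewise passed under all 14. Pmaip1 was at 1.14 to 3.67 per kb in LSK and at 0.570 to 0.960 per kb in LK (log2 fold change 1.59, SE 0.45, edgeR adjusted p = 0.0178), so a pro-apoptotic member was higher in LSK as well. The Pmaip1 call was lost with limma-voom (adjusted p = 0.0537) and without LK PBS replicate 1 (0.0669) or LK PBS replicate 2 (0.0762). Its log2 fold change was 0.90 without LSK PBS replicate 2.

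The remaining members were closer between LSK and LK with PBS. Mcl1 differed by a log2 fold change of 0.13 (SE 0.13, edgeR adjusted p = 0.47) and Bcl2l11 by −0.12 (SE 0.25). Bak1 was lower in LSK in the estimate (−0.47, SE 0.15, edgeR adjusted p = 0.0325), under the size threshold, and was called lower by DESeq2 (−0.53, adjusted p = 0.00439), with DESeq2's size factors, and without LSK PBS replicate 1, LSK PBS replicate 3 or LK PBS replicate 2. Bax was at −0.19 (SE 0.35, adjusted p = 0.708), and at −0.91 (adjusted p = 0.00245) without LSK PBS replicate 2. Bbc3 was at 0.65 (SE 0.35, adjusted p = 0.176), and at 0.89 (0.0412) without the same library. The 10 erythroid markers were all called lower in LSK than in LK, and of the 6 stem cell markers 5 were called higher and 1 lower. The part of this make-up in the member differences was not tested.

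With IL-1β, Bcl2 was again higher in LSK than in LK (5.42 and 8.84 per kb against 2.63 and 2.68 per kb). The log2 fold change was 1.44 (SE 0.27, edgeR adjusted p = 0.0125), and it was the only member called, where 4.4% of all genes were called, 2.13% higher and 2.27% lower. The call was lost with limma-voom (adjusted p = 0.0566) and without LSK IL-1β replicate 1 (0.0812), LK IL-1β replicate 1 (0.115) or LK IL-1β replicate 2 (0.161). Bcl2l1 was at a log2 fold change of 0.98 (SE 0.26, edgeR adjusted p = 0.0563) and was called by DESeq2 (adjusted p = 0.0145). Pmaip1 was at 0.84 (SE 0.52, adjusted p = 0.377). Libraries of LSK and LK did not overlap at any of the 8 members, 6 higher in LSK and 2 lower, where 56.9% of all genes did not overlap, 27.1% higher and 29.8% lower.

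The members were then placed beside the rest of the death pathway, in lists of 16 other BCL2 family genes, 12 apoptosome and mitochondrial death genes, 5 inhibitor of apoptosis genes, 11 genes of p53 and its targets, 7 death receptor genes and 11 upstream regulators. In LSK, 1 of the 55 tested genes of these lists was called with IL-1β, where 0.632% of all genes were called. It was Endog, a mitochondrial nuclease, which rose (log2 fold change 2.11, SE 0.38, edgeR adjusted p = 0.0493). That call was lost with limma-voom (0.12) and without PBS replicate 1 (0.0606), IL-1β replicate 1 (0.0951) or IL-1β replicate 2 (0.451). In LK, 12 of the 54 tested were called, 5 higher and 7 lower, where 6.77% of all genes were called higher and 2.57% lower. Of the p53 list, which holds regulators and targets of the pathway to which Pmaip1 and Bbc3 belong, 1 of 11 was called higher and 4 lower. Perp rose by 2.50 on the log2 scale, while Phlda3 fell by 2.06, Cdkn1a (the cell cycle inhibitor p21) by 1.29, Zmat3 by 1.15 and Sesn2 by 0.81. Pmaip1 thus moved against most called genes of that list. Of the apoptosome list Apaf1, the scaffold that activates caspase-9, rose (0.62), and the caspase gene Casp6 fell (−1.03). The death receptor genes Tnfrsf1a (1.08) and Cflar (0.58) rose, as did the kinase gene Pim1 (0.77), and the NF-κB gene Rela fell (−0.60). All 12 lost their call without LK IL-1β replicate 1, and 9, 8 and 7 of them without IL-1β replicate 2, PBS replicate 1 and PBS replicate 2.

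In MSC, 8 of the 55 tested genes of these lists were called, 7 higher and 1 lower, where 11.4% of all genes were called, 7.14% higher and 4.31% lower. Besides Bcl2a1a, the BH3-only gene Bmf rose (log2 fold change 1.11, edgeR adjusted p = 0.0441). Fas, a death receptor, rose by 2.10 (adjusted p = 0.00468), Birc3, an NF-κB target that encodes cIAP2, by 1.21 (0.00458), Stat3 by 0.75, Pim1 by 0.65 and Cflar, which encodes the caspase-8 inhibitor FLIP, by 0.64. Birc5, which encodes survivin and is expressed in dividing cells, fell by 1.61 on the log2 scale (adjusted p = 0.00738). None of the 10 tested p53 genes was called. All 8 lost their call without IL-1β replicate 1 and without IL-1β replicate 2.

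Between LSK and LK with PBS, 25 of the 56 tested genes of the lists were called, 16 higher in LSK and 9 lower, where 19.4% of all genes were called higher and 12.4% lower. The 15 with the largest differences included the kinase genes Pim2 (log2 fold change 2.57) and Pim1 (1.45), the transcription factor genes Rel (1.99), Stat3 (1.73) and Foxo1 (1.39), and the inhibitors Cflar (1.72) and Birc3 (1.19), all higher in LSK. Bok, an effector-like BCL2 relative, was higher by 3.46 and Trp53inp1 by 2.70. Lower in LSK were Zmat3 (−1.97), Ddit3 (−1.44), Htra2 (−1.37), Endog (−1.20) and Bcl2l13 (−1.08). Of the 25, 6 lost their call without LK PBS replicate 1 and 6 without LK PBS replicate 2. Under IL-1β, 5 of the 56 tested were called, 4 higher in LSK and 1 lower. Of all genes 4.4% were called there, 2.13% higher and 2.27% lower. Bok (3.00), Cdkn1a (1.78), Pim2 (1.65) and Pim1 (0.70) were higher in LSK. All 5 lost their call without either LK library. With same-numbered LSK and LK libraries as a block, Pim1 was not called under IL-1β (adjusted p = 0.0746).

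Over the 10 sorted libraries, each tested member was set beside the gene most like it in log2 CPM. The libraries share population, treatment and depth, so Pearson's r is a description. Each closest gene was picked among 13839 tested genes over only 10 libraries, so a high r can arise from that selection alone. The closest gene was Rbpms2 for Bcl2 (r = 0.99), Nkx2-3 for Bcl2l1 (0.98), Plch1 for Mcl1 (0.95), Trappc1 for Bax (0.98), Vcam1 for Bak1 (0.98), Gm43904 for Bcl2l11 (0.96), 9130019O22Rik for Bbc3 (0.96) and Fam118a for Pmaip1 (0.98). Among the members themselves, Bcl2 ran with Bcl2l1 (r = 0.80) and against Bak1 (r = −0.88), and Pmaip1 ran against Bcl2l11 (r = −0.73). With the log2 library total the r was −0.78 for Pmaip1, 0.67 for Bcl2l11, −0.54 for Bak1 and −0.46 for Bax. It was 0.40 for Bbc3, 0.37 for Bcl2, −0.20 for Bcl2l1 and −0.14 for Mcl1. Among these members, depth thus moved most with Pmaip1 and Bcl2l11.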

How the data were processed

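RNA-seq of 10 sorted LSK and LK libraries and 4 MSC libraries was analysed. Per gene, the authors deposited raw counts of read pairs, with no normalization. Per the submitters' notes and file headers, reads were trimmed with fastp 0.20.0, aligned with HISAT2 2.0.1 to GRCm38, sorted with SAMtools 1.10 and counted with featureCounts 2.0.2 in reverse-stranded mode, without multimapping pairs. The paper also names GenomicAlignments. Groups were taken from the sample labels. A further IL-1β MSC library named in a file header has no column of counts and was not analysed here.

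The test was edgeR 4.0.16 in R 4.3.3: filterByExpr, TMM scaling, robust glmQLFit and glmQLFTest, with Benjamini-Hochberg adjustment over all genes tested. LSK, LK and MSC were fitted alone, and LSK against LK in 1 fit of 10 libraries. A call needed an adjusted p under 0.05 together with a change of more than 0.5 on the log2 scale. The SE is the log2 fold change divided by the square root of F. CPM is scaled by TMM within a population and level per kb over the 14 libraries. Totals of 4393233 to 30871055 pairs limit the precision of low genes, and PCR copies are not independent molecules.

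Alternatives were DESeq2 1.42.0, limma-voom (limma 3.58.1), DESeq2 size factors, upper-quartile factors, no filter, at least 10 reads in 2 libraries, no fold threshold, a replicate block, a joint fit, TPM and each replicate left out. The deviations of same-numbered LSK and LK libraries from their group means had correlations of 0.211, 0.128 and 0.472 with PBS. Both pairs with IL-1β were at 0.100. The numbers were used as a block in an alternative only, and the main fit was unpaired. The labels do not name shared mice, unmatched libraries reached 0.162 (LSK 2 with LK 1, PBS), and with 2 libraries a group both IL-1β values are 1 mirrored number. The members and the gene lists were chosen with earlier results of these data known. Named genes are all members, called genes of the lists (at most 15 per comparison) and the closest gene of each member, except 1 list gene whose values are not reported here. Marker genes are given as sums, and Ly6a, Kit, Lepr, Fgd5, Lyz2, Cd68 and Tyrobp were named after their values were seen. Bcl2a1 sequences were read from GENCODE M21, and 55141 identifiers had a symbol there. Figures were drawn with matplotlib 3.10.9.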

Additional observations from a re-analysis of the deposited data

How the results depend on the processing

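Of 50 member results, 41 kept their direction and 25 also their side of the threshold under every alternative run. With DESeq2, 852 genes were called in LSK (83 in the main fit), with limma-voom 21, without a filter 869 and in the joint fit 1228, and each of DESeq2, no filter and the joint fit called 1 member higher and 1 lower. In LK, 1844 genes were called without a filter and 489 in the joint fit (main 1199), 1 member was called lower with DESeq2, upper-quartile factors or no filter, and 2 were called higher without the fold threshold. In MSC, no filter gave 2354 genes (main 1515) and 2 members lower. For LSK against LK with PBS, 1 member was lower with DESeq2, DESeq2 size factors, no filter or no fold threshold. With IL-1β, 1317 genes were called with DESeq2, 182 with limma-voom and 1410 without a filter (main 609), and the members called higher were 2, 0 and 2, with 2 for upper-quartile factors. For the difference of the responses the counts were 324, 1 and 398 (main 4). The cause was not tested, beyond the number of genes tested without a filter.

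The deviations of same-numbered PBS and IL-1β libraries had correlations of 0.126 and −0.035 in LSK and −0.102 and 0.0333 in LK, for numbers 1 and 2. With 2 IL-1β libraries, the value of a PBS library with 1 of them is the negative of its value with the other. These values can therefore neither show nor exclude a pairing by number. A replicate block on those numbers called 702 genes in LSK, with 1 member higher and 1 lower, and 2331 in LK, with 2 higher and 2 lower. The block of LSK with LK libraries changed no member's call, and gave 4480, 733 and 24 genes with PBS, with IL-1β and for the difference. No paired analysis was possible for MSC because the treatments share only number 2.

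Leaving out 1 library gave 3 to 480 called genes in LSK, 66 to 2409 in LK, 38 to 3819 in MSC, 2741 to 4607 for LSK against LK with PBS, 89 to 391 with IL-1β and 0 to 336 for the difference. A lone library was assumed to vary like the others. Members called higher ranged from 0 to 2 in LSK, 0 to 2 in LK, 2 to 4 and 0 to 1 for LSK against LK with PBS and IL-1β and 0 to 1 for the difference; members called lower ranged from 0 to 2 in LK, 0 to 3 in MSC and 0 to 1 for LSK against LK with PBS. The signs that turned belonged to uncalled members. In MSC, Bcl2a1d was at −0.024 with limma-voom, −0.00124 with DESeq2 size factors, −0.057 with upper-quartile factors and −0.071 to 0.11 without 1 library. Without 1 library, Bcl2l1 in LSK ran from −0.30 to 0.040, Mcl1 in LK from −0.061 to 0.0035, Bax in LK from −0.18 to 0.041, and for LSK against LK with PBS Bax from −0.91 to 0.068 and Bcl2l11 from −0.32 to 0.044. For the difference of the responses Mcl1 ran from −0.0013 to 0.17, Bak1 from −0.079 to 0.11 and Bbc3 from −0.19 to 0.49.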
